A study of Mus musculus with 4 samples.

Results

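The genes described here are 33 genes that fibroblasts are known for, chosen by name from the 45706 genes of the count table as a measure of RNA from the feeder layer. They cover fibrillar and other collagens, matrix glycoproteins and proteoglycans, enzymes and inhibitors of the matrix, contractile and cytoskeletal proteins, surface proteins and transcription factors. All 33 were found in the table by symbol, and 30 had enough counts to be tested. The libraries labelled 24 h came from V6.5, an embryonic stem cell line of the mouse, with the genotype label KLF KO, after doxycycline had been added for 24 h. The libraries labelled 0 h came from V6.5 cells with the genotype label KLF WT and no induction. Per the labels, the cells carried a lentiviral vector that encodes a doxycycline-inducible Cas9 linked to GFP, a puromycin resistance and the doxycycline-responsive activator, with guides that target either KLF4 by itself or the trio of KLF2, KLF4 and KLF5. Clonal populations were picked by hand after puromycin selection, so a line stands for 1 clone. Both groups are labelled as grown in 2i (a MEK inhibitor at 1 µM and a GSK3 inhibitor at 3 µM), on irradiated feeder cells, with LIF at 1000 U/ml and serum at 15%. There were 2 biological replicates per group, called A and B. The titles carry the abbreviation TKO in both groups and also name a KLF4 knockout at 24 h, and which guides each library carried is therefore uncertain. Doxycycline, Cas9, loss of KLF protein and time share this contrast, and so would any difference between lines.

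Feeder layers are fibroblasts that have been stopped from dividing, which supply stem cells with attachment and secreted factors. Fibroblasts build a matrix of collagen fibres, fibronectin and small proteoglycans, cross-link it with lysyl oxidases and remodel it with metalloproteinases, which TIMP proteins inhibit. Some of these genes are not particular to fibroblasts, since embryonic stem cells themselves make fibronectin, SPARC and vimentin. In RNA from a mixed culture, fewer cells of a type and less RNA per cell cannot be told apart.

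The libraries held 46031578 to 52412844 counts. Levels are given as CPM, counts set to the same total in each library after TMM scaling, a correction for library makeup. Where a count was 0, the level could still be as high as 3 counts of the total, or 0.0572 to 0.0652 CPM, for counting error only. RNA of each gene that the guides are named for was present in every library. Klf4 had 244.4 and 235.7 CPM at 24 h, against 331.4 and 257.0 CPM at 0 h. Klf2 had 147.3 and 152.5 CPM at 24 h, against 231.9 and 123.5 CPM at 0 h, and Klf5 had 225.9 and 215.6 CPM at 24 h, against 430.9 and 294.3 CPM at 0 h. None of these 3 genes was past edgeR's test, and 1 (Klf5) had an unadjusted p under 0.05. DESeq2 called Klf5 lower and limma voom called 0 of the 3. An edited gene can go on giving RNA, so these levels do not check the labels. Markers of embryonic stem cells (10 genes, highest Tfcp2l1, Nanog and Esrrb) summed to 5409 and 5441 CPM at 24 h, against 6233 and 6093 CPM at 0 h. Of these 10 markers, 3 fell and 0 rose by edgeR's test, and 7 were lower in both 24 h libraries. Klf4, which the guides are named for, is among the 10 and among these 7. Over all genes tested, 2.65% fell and 4.15% rose by that test, and 29.5% were lower in both 24 h libraries. Those that fell were Pou5f1, which encodes OCT4, with 527.4 and 529.2 CPM at 24 h, against 845.2 and 689.1 CPM at 0 h, and Zfp42 and Utf1. The 2 replicates at 0 h stood apart from each other. The log2 difference of replicate A minus replicate B had an SD of 0.334 at 24 h and 0.466 at 0 h over the genes tested. At 0 h it also went with GC content.

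Of the 30 genes tested, 1 rose and 1 fell at 24 h by edgeR's quasi-likelihood test (Benjamini-Hochberg adjusted p under 0.05). Vim, which encodes vimentin, the intermediate filament of mesenchymal cells, was higher, and Pdgfrb, which encodes a receptor for platelet-derived growth factor on fibroblasts and pericytes, was lower. The share of all 18005 genes tested that was past the same test was 4.15% for higher genes and 2.65% for lower genes, or 6.8% in all. The other 28 listed genes were not past it, and 6 of the 30 (Vim, Pdgfrb, Timp3, Sparc, Acta2 and Thbs1) had an unadjusted p under 0.05. By the Wald test of DESeq2, Vim, Pdgfrb and Timp3 were called, and limma voom called Vim and Pdgfrb. The median log2 fold change of the 30 genes was 0.06, with 16 positive and 14 negative values, beside a median of -0.01 over all genes tested. The median of the listed genes was 0.05 without replicate A of 24 h, -0.03 without replicate B of 24 h, 0.17 without replicate A of 0 h and -0.13 without replicate B of 0 h. The log2 fold change reached 0.5 in size in 3 of the 30 genes (10%), beside 24.9% of all genes tested. The 2 libraries of 24 h both lay above the 2 of 0 h for 9 of the 30 genes and both below for 6, and the groups overlapped for 15. Over all genes tested, the groups were apart with 24 h higher in 29.3% and with 24 h lower in 29.5%.

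**Figure D1:**
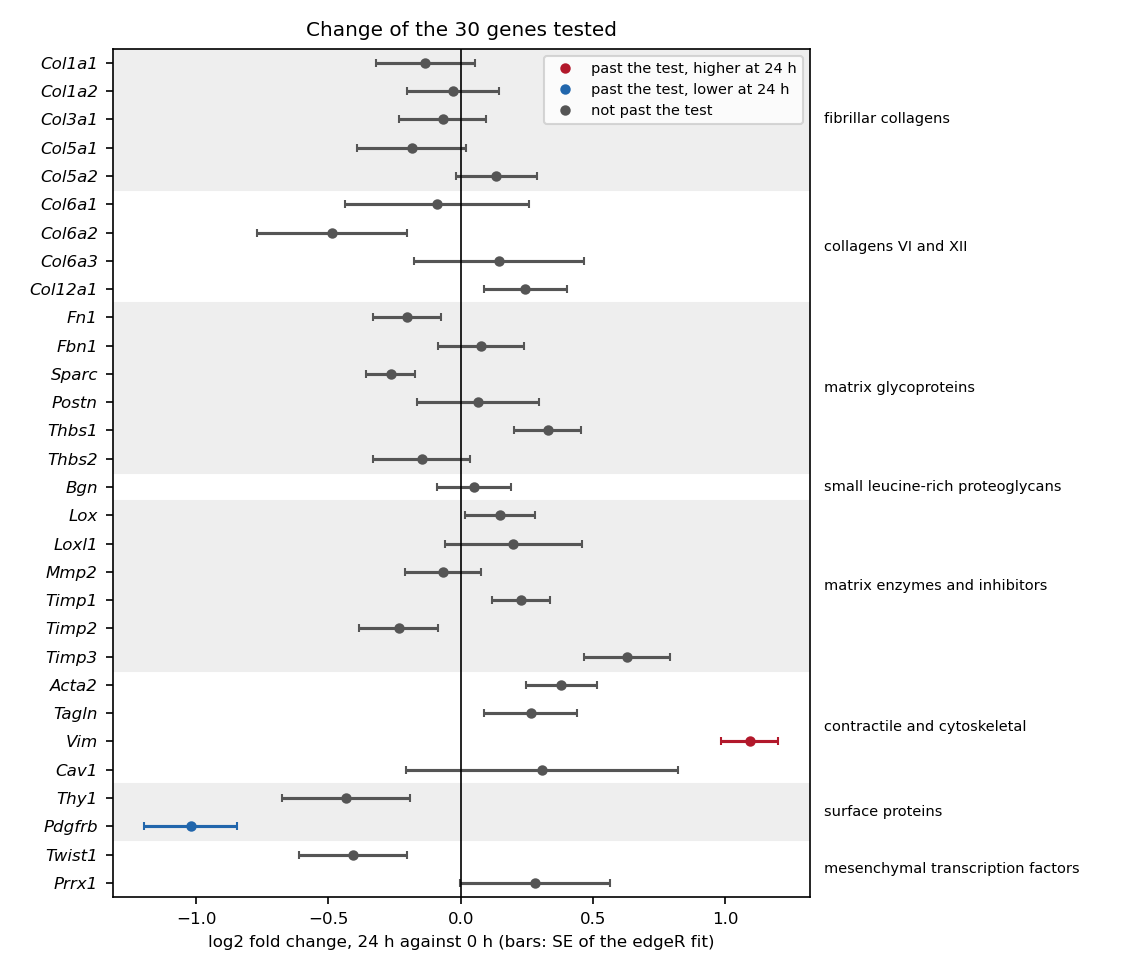
Log2 fold change of 24 h against 0 h for the 30 listed genes that were tested (x axis), with bars of 1 SE from the edgeR fit, in order of function. Vim (1.09) is past the test on the higher side and Pdgfrb (-1.02) on the lower side, and the other points lie between -0.49 and 0.63.

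The level of the 33 genes as a whole showed no shift between the groups that exceeded the gap between the 0 h replicates. Together they summed to 3308 and 3258 CPM at 24 h, against 3956 and 3228 CPM at 0 h. As a share of all counts this was 0.338% (95% Clopper-Pearson interval 0.337 to 0.340) and 0.331% (0.330 to 0.333) at 24 h, against 0.382% (0.380 to 0.384) and 0.321% (0.320 to 0.323) at 0 h. Replicate A of 0 h was thus the highest library and replicate B of 0 h the lowest, with both 24 h libraries between them. The intervals cover counting error only.

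A few genes carried most of that sum. Fn1 alone made up 62.0% and 61.0% of it at 24 h, against 66.0% and 63.0% at 0 h. Sparc added 18.9% and 19.7% at 24 h, against 19.8% and 22.8% at 0 h. Without Vim, Sparc and Fn1, the other 30 genes summed to 433.9 and 420.8 CPM at 24 h, against 460.8 and 368.6 CPM at 0 h. A narrower set of 14 genes with textbook expression in mesenchymal cells (Col1a1, Col1a2, Col3a1, Col5a2, Col6a3, Dcn, Lum, Postn, Thbs2, Prrx1, Twist1, Mmp2, Lox and Pdgfrb) summed to 167.0 and 165.3 CPM at 24 h, against 202.8 and 154.8 CPM at 0 h. In each of these sums the 24 h libraries lay between those of 0 h.

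**Figure D2:**
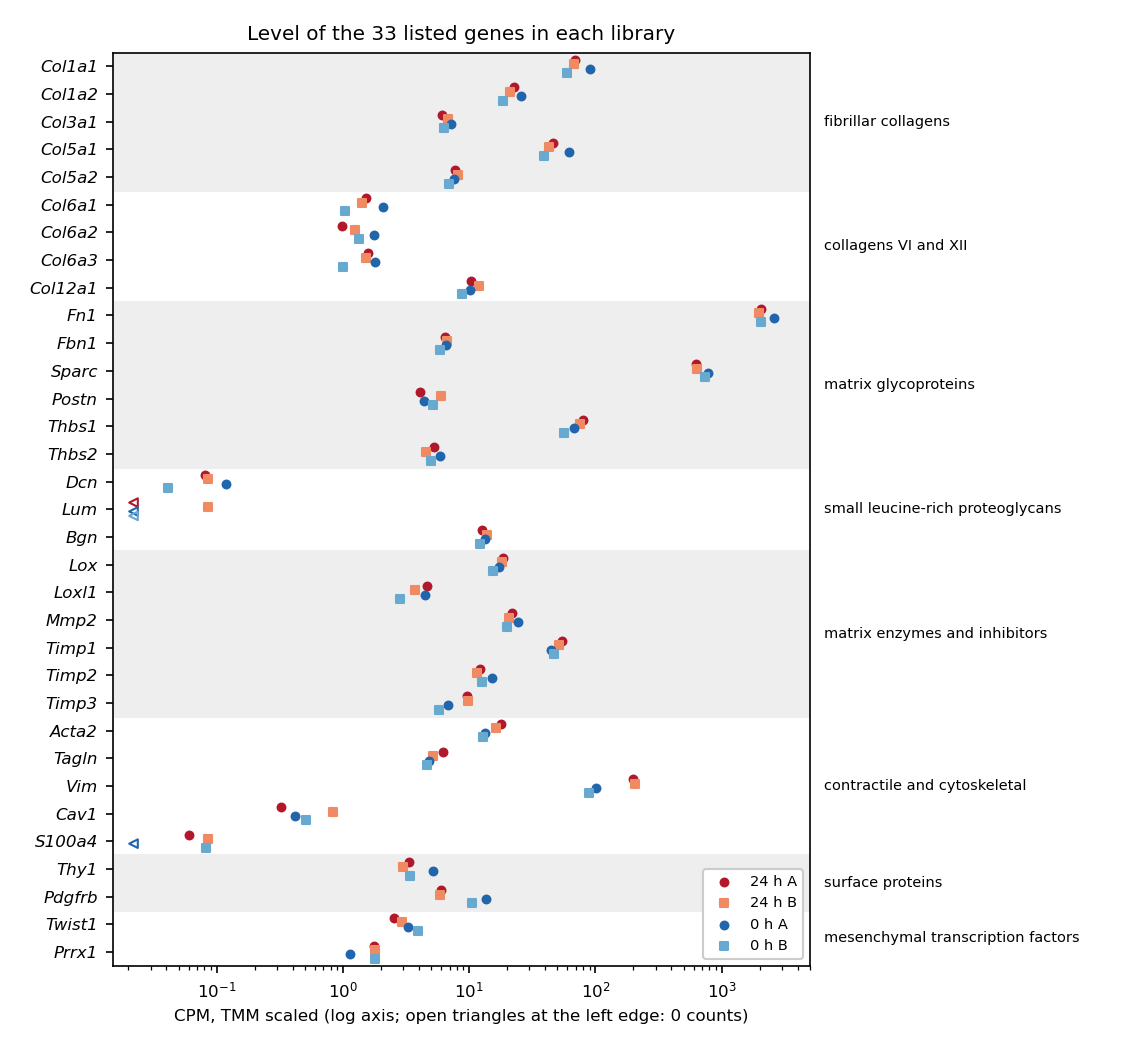
Level of the 33 listed genes in CPM (log axis) in each of the 4 libraries, with 24 h in red and orange, 0 h in dark and light blue, and replicates A and B as circles and squares; open triangles at the left edge mark 0 counts. Fn1 and Sparc lie highest, Dcn, Lum and S100a4 lie near the level of a few counts, and Vim and Pdgfrb are the genes whose groups stand clearest apart.

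Levels of different genes were compared per length, as RPKM (CPM divided by the length of the longest transcript in kilobases). Averaged over the 4 libraries, Sparc (303.2 RPKM) and Fn1 (261.0 RPKM) were highest. Timp1 (56.0 RPKM) and Vim (50.7 RPKM) came next, and then Col1a1 (12.1 RPKM) and Thbs1 (11.9 RPKM), which did not differ beyond the spread over libraries. Acta2 (7.43 RPKM) and Mmp2 (7.09 RPKM) also lay within each other's spread. Dcn was at 0.0174 RPKM and Lum at 0.00873 RPKM.

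The label of a fibroblast signal holds for part of the list only. Decorin (Dcn) and lumican (Lum), small proteoglycans that bind collagen fibres and are classic fibroblast transcripts, were at or near the limit of detection. Dcn had 4 and 4 counts at 24 h, against 6 and 2 counts at 0 h. Lum had 0 and 4 counts at 24 h, against 0 and 0 counts at 0 h. S100a4, also called fibroblast-specific protein, had 3 and 4 counts at 24 h, against 0 and 4 counts at 0 h, and Gm42674 on the same strand covers 51.7% of its exon bases, so reads there cannot be assigned with certainty. Fap, a fibroblast surface protease that is not in the list, had 2 and 0 counts at 24 h and 0 counts in both 0 h libraries. Collagen I transcripts were present in every library all the same. Of 12 defining fibroblast markers (Col1a1, Col1a2 and Col3a1 among them), 9 were tested, 0 were higher and 1, Ddr2, was lower at 24 h. Over all genes tested, 4.15% were higher and 2.65% lower. Of these 9 markers, 7 had a negative and 2 a positive log2 fold change. Both 24 h libraries lay below those of 0 h for 3 (29.5% of all genes tested) and above for 0 (29.3% of all). Only Pdgfra, Ddr2, Fap and Mfap5 among the 12 are not listed genes, so most of these values are those of the list itself. The 12 markers summed to 119.5 and 121.1 CPM at 24 h, against 151.7 and 116.7 CPM at 0 h. The genes are therefore called the listed fibroblast genes below, and no level is read as an amount of feeder RNA.

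Among the fibrillar collagens, which form the load-bearing fibres of the matrix, 0 of 5 were past the test. Col1a1 and Col1a2 encode the chains of type I collagen. Col1a1 (chromosome 11, 94936224 to 94953042, GRCm38) had 69.1 and 67.4 CPM at 24 h, against 90.1 and 59.6 CPM at 0 h. Its 24 h libraries agreed closely and lay between the 0 h libraries, and the log2 fold change was -0.13 (SE 0.19; edgeR adjusted p 0.687). Col1a2 (chromosome 6, 4504814 to 4541544) had 22.5 and 21.1 CPM at 24 h, against 25.8 and 18.7 CPM at 0 h. It showed the same order of libraries. Counts of Col1a1 per count of Col1a2 were 3.07 and 3.20 at 24 h, against 3.49 and 3.19 at 0 h.

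Col3a1, which encodes type III collagen of young and elastic tissue, had 6.14 and 6.75 CPM at 24 h, against 7.20 and 6.32 CPM at 0 h. Col5a1 and Col5a2 encode chains of type V collagen, which sets the width of collagen I fibres. Col5a1 had 45.9 and 43.0 CPM at 24 h, against 61.9 and 39.1 CPM at 0 h. Col5a2 had 7.73 and 8.23 CPM at 24 h, against 7.59 and 6.93 CPM at 0 h. Only for Col5a2 among these 5 collagens did the groups stay apart, by a log2 fold change of 0.14 (SE 0.15).

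The sign of Col1a1 and Col5a1 differed with the 0 h library used. Without replicate A of 0 h, both were higher at 24 h, with a log2 fold change of 0.19 (edgeR adjusted p 0.00697) for Col1a1 and 0.19 (edgeR adjusted p 0.0310) for Col5a1. Without replicate B of 0 h, both were lower, with -0.40 for Col1a1 and -0.48 for Col5a1. With 1 library left in a group, the test assumes that it varies like the other group. In these reduced fits 32.2% of all genes tested were past the test without replicate A of 0 h, and 50.2% without replicate B of 0 h. Of the 30 listed genes, 12 and 14 were past it in those fits. Vim, Timp1, Timp3, Acta2 and Thbs1 were higher and Sparc and Pdgfrb lower in both.

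**Figure D3:**
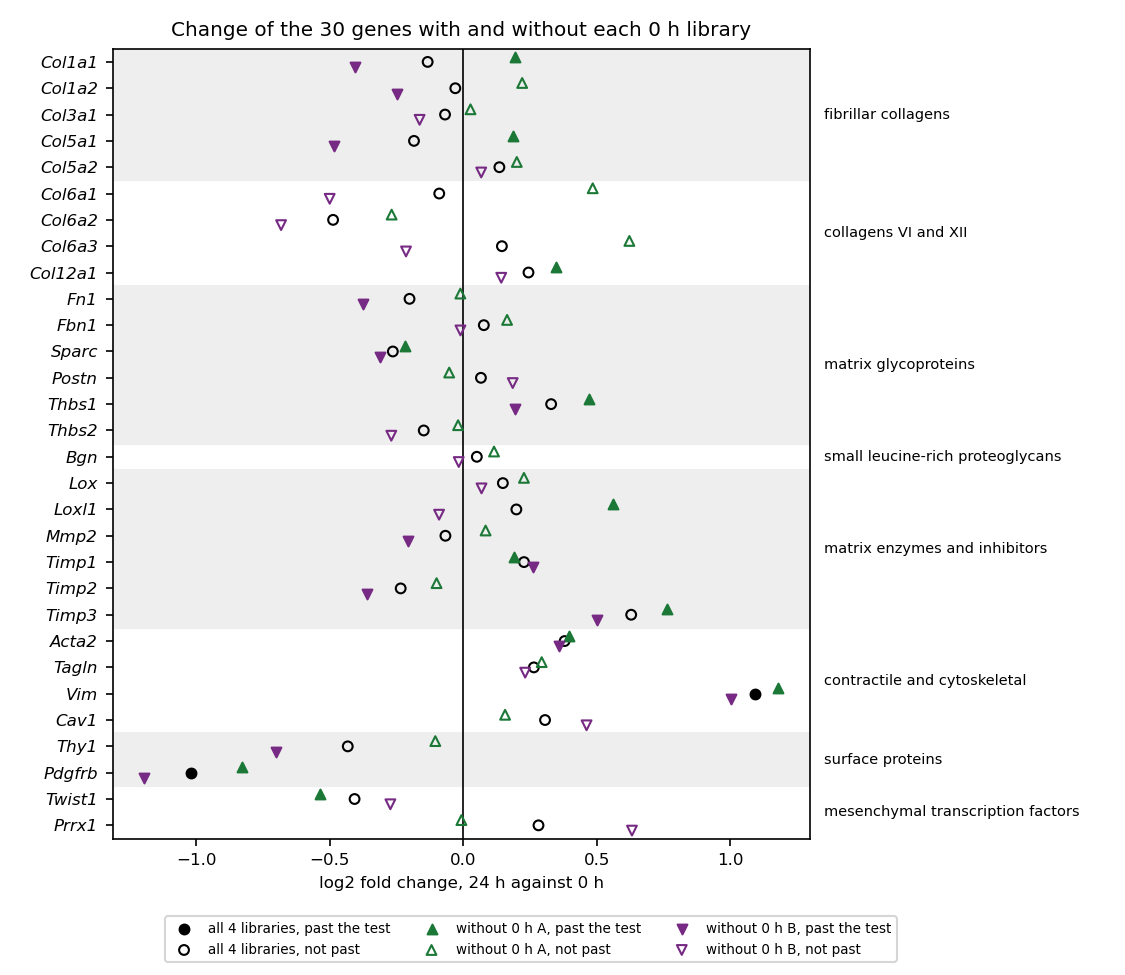
Log2 fold change of 24 h against 0 h (x axis) for the 30 listed genes with all 4 libraries (black circles), without replicate A of 0 h (green triangles) and without replicate B of 0 h (purple triangles); filled marks are past edgeR's test. Col1a1 and Col5a1 lie on opposite sides of 0 in the reduced fits, while Vim and Pdgfrb keep their side in all 3.

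Collagen VI forms beaded filaments around cells, and collagen XII lies on the surface of collagen I fibres. None of these 4 genes was past the test, and the 3 collagen VI genes were low. Col6a1 had 1.53 and 1.41 CPM at 24 h, against 2.08 and 1.05 CPM at 0 h. Col6a2 had 0.986 and 1.24 CPM at 24 h, against 1.78 and 1.34 CPM at 0 h, and Col6a3 had 1.57 and 1.54 CPM at 24 h, against 1.80 and 1.01 CPM at 0 h. The groups overlapped for Col6a1 and Col6a3, and for Col6a2 both 24 h libraries lay below those of 0 h. Col12a1 had 10.4 and 11.9 CPM at 24 h, against 10.1 and 8.76 CPM at 0 h, with 24 h above 0 h in both libraries and an edgeR adjusted p of 0.368.

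The matrix glycoproteins held the highest levels of the list, and 0 of 6 were past the test. Fn1 encodes fibronectin, which links integrins to collagen. It had 2051 and 1988 CPM at 24 h, against 2611 and 2033 CPM at 0 h. The single high library was replicate A of 0 h, and the log2 fold change was -0.20 (SE 0.13; edgeR adjusted p 0.362). Sparc encodes a collagen-binding protein that is also abundant in parietal endoderm. It had 625.5 and 642.0 CPM at 24 h, against 784.4 and 737.3 CPM at 0 h. Both 24 h libraries were lower, by a log2 fold change of -0.26 (SE 0.09; edgeR adjusted p 0.135).

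Thbs1 and Thbs2 encode thrombospondins, secreted proteins that bind matrix and cell surfaces, and Thbs1 can activate TGF-beta. Thbs1 had 80.1 and 75.1 CPM at 24 h, against 67.6 and 56.0 CPM at 0 h. Its 24 h libraries were the higher ones, with a log2 fold change of 0.33 (SE 0.13) that did not pass the test (edgeR adjusted p 0.160). Thbs2 had 5.25 and 4.57 CPM at 24 h, against 5.91 and 4.98 CPM at 0 h, and overlapped. Fbn1, which encodes fibrillin of elastic microfibrils, had 6.40 and 6.71 CPM at 24 h, against 6.58 and 5.84 CPM at 0 h. Postn encodes periostin, a matrix protein of bone lining and wounds, and had 4.05 and 5.98 CPM at 24 h, against 4.39 and 5.18 CPM at 0 h. Fbn1 and Postn overlapped between the groups as well. An antisense gene, Gm9913, covers 20.1% of the exon bases of Fbn1, but had at most 2 counts in any library.

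Of the small leucine-rich proteoglycans, Bgn was the only member tested. It encodes biglycan, a relative of decorin, and had 12.7 and 13.8 CPM at 24 h, against 13.3 and 12.2 CPM at 0 h. The groups overlapped, with a log2 fold change of 0.05 (SE 0.14).

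The matrix enzymes and their inhibitors were not past the test in 6 of 6 cases, and Timp3 came closest. Lox encodes lysyl oxidase, which cross-links collagen and elastin, and had 18.4 and 18.1 CPM at 24 h, against 17.4 and 15.6 CPM at 0 h. Loxl1 encodes a related oxidase of elastic fibres and had 4.67 and 3.70 CPM at 24 h, against 4.45 and 2.84 CPM at 0 h. Mmp2 encodes gelatinase A, a collagen-degrading metalloproteinase, and had 21.8 and 20.9 CPM at 24 h, against 24.6 and 20.1 CPM at 0 h. The groups were apart for Lox, with 24 h higher, and overlapped for Loxl1 and Mmp2.

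The TIMP proteins inhibit metalloproteinases, and Timp3 differs from the others in that it binds to the matrix. Timp3 (chromosome 10, 86300372 to 86349506, plus strand) had 9.66 and 9.83 CPM at 24 h, against 6.86 and 5.74 CPM at 0 h. Both 24 h libraries were higher, by a log2 fold change of 0.63 (SE 0.16; edgeR adjusted p 0.0667). It was past the threshold in 9 of the 14 alternative fits, with adjusted p over the 14 between 1.45e-06 and 0.452, so its call depends on the setting. Syn3 on the opposite strand covers 21.3% of its exon bases and had 59 and 65 counts at 24 h, against 75 and 81 at 0 h. Reads of the shared stretch cannot be assigned with certainty, because the strand setting of the counting is not given in the sources used here.

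Timp1 had 54.8 and 51.8 CPM at 24 h, against 44.4 and 46.7 CPM at 0 h. Timp2 had 12.1 and 11.6 CPM at 24 h, against 15.2 and 12.7 CPM at 0 h. Timp1 was thus higher and Timp2 lower in both 24 h libraries, with an edgeR adjusted p of 0.234 for Timp1 and 0.363 for Timp2.

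Of the 5 contractile and cytoskeletal genes, 4 were tested, and Vim was past the test. Vim (ENSMUSG00000026728, chromosome 2, 13573927 to 13582826, plus strand) had 197.4 and 206.9 CPM at 24 h, against 100.5 and 89.1 CPM at 0 h. The groups lay far apart compared with the spread within them, at 202.1 ± 6.71 CPM at 24 h and 94.8 ± 8.02 CPM at 0 h (SD, n = 2 each). The log2 fold change was 1.09 (SE 0.11; edgeR adjusted p 0.00527). Vim was past the threshold in all 14 alternative fits, with log2 fold changes between 1.00 and 1.18 and adjusted p of at most 0.00682. Relative to Col1a1 in the same library it gave 2.86 and 3.07 counts per count at 24 h, against 1.12 and 1.49 at 0 h, so these genes did not move together.

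Acta2 encodes smooth muscle actin of myofibroblasts and had 17.9 and 16.3 CPM at 24 h, against 13.3 and 13.0 CPM at 0 h. Both 24 h libraries were higher, by a log2 fold change of 0.38 (SE 0.13; edgeR adjusted p 0.137). Short reads can be shared between the near-identical actin genes, so this level is uncertain. Tagln encodes transgelin, an actin-binding protein of smooth muscle, and had 6.18 and 5.17 CPM at 24 h, against 4.82 and 4.63 CPM at 0 h. The antisense gene Gm48529 covers 62.4% of its exon bases. Cav1 encodes caveolin of membrane pits and had 16 and 39 counts at 24 h, against 21 and 25 counts at 0 h. Its 2 libraries of 24 h were the lowest and the highest of the 4, so no difference could be detected at this depth.

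The promoters of Vim, Acta2 and Timp1 are shown because these genes were higher in both 24 h libraries and hold a motif that was searched for. The windows run from 250 bases before to 50 bases after the start site and come from RefSeq on GRCm38.p6, in which 20 of the 33 genes were found, with 23 promoters. Vim is chr2:13574061-13574360 (plus strand), with a TATAAA box 32 bases before the start in capitals. Acta2 is chr19:34255324-34255623 (minus strand), with the TEAD motif GGAATG at 146 bases before the start in capitals. Timp1 is chrX:20869916-20870215 (plus strand), with GGAATG at 247 bases before the start in capitals. For Vim and Acta2 the start site of the window lies inside the span of the gene in GENCODE. Distances are counted from the window's own start site.
Vim: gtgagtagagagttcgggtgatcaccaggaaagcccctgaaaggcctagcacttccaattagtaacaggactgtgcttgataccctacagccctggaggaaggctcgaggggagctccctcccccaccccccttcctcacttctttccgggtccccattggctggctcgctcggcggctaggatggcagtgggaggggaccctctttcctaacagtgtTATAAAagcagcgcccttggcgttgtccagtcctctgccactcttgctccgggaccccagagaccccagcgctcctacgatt
Acta2: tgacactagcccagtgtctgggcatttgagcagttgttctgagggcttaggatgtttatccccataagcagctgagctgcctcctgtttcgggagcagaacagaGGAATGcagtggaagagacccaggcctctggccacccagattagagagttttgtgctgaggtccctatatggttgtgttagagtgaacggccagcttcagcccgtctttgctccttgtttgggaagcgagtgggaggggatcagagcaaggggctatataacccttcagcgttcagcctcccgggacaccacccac
Timp1: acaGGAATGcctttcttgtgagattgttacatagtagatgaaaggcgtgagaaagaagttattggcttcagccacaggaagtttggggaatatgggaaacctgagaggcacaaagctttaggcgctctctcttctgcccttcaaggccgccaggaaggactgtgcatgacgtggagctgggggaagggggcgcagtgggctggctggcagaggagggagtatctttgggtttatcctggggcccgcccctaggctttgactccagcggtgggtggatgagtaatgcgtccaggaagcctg

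TEAD factors act with YAP on contractile and matrix genes, AP-1 factors respond to growth signals, and SRF binds the CArG box of contractile genes. GGAATG was found on either strand in 5 of the 23 promoters (21.7%; Acta2, Col3a1, Col6a2, Prrx1 and Timp1), beside 14.7% of all 32851 promoters in the table. The AP-1 motif TGANTCA was found in 1 (4.35%; Col6a1), beside 7.81% of all, and the strict consensus of the CArG box in 0, beside 1.63% of all. Boxes that depart from that consensus by a base were not searched for, and the known CArG boxes of the Acta2 promoter are of that kind. TATAAA on the forward strand, a search added after values were seen, was found in 5 (21.7%; Col3a1, Postn, S100a4, Twist1 and Vim), beside 8.32% of all. Genes with and without a motif were found among those with positive and negative values, for example Col6a2 with GGAATG at -0.49 and Acta2 with it at 0.38 on the log2 scale. A match describes these letters and not a bound site.

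The surface proteins were the only role group in which each tested gene was lower in both 24 h libraries, and 1 of 2 was past the test. Pdgfrb (ENSMUSG00000024620, chromosome 18, 61045150 to 61085061, plus strand) had 6.04 and 5.86 CPM at 24 h, against 13.6 and 10.6 CPM at 0 h. Both 24 h libraries lay below both of 0 h, at 5.95 ± 0.129 CPM at 24 h and 12.1 ± 2.14 CPM at 0 h (SD, n = 2 each). The log2 fold change was -1.02 (SE 0.18; edgeR adjusted p 0.0217). Without replicate B of 24 h the adjusted p in edgeR was 0.0644, and in the other 13 alternative fits Pdgfrb was past the threshold, with log2 fold changes of -1.19 to -0.83 over the 14. Counts of Pdgfrb per count of Col1a1 were 0.0874 and 0.0869 at 24 h, against 0.151 and 0.177 at 0 h. Thy1 encodes a surface glycoprotein of fibroblasts and neurons and had 3.34 and 3.01 CPM at 24 h, against 5.16 and 3.42 CPM at 0 h. Its log2 fold change of -0.43 (SE 0.24) was not past the test (edgeR adjusted p 0.3002).

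Twist1 and Prrx1 encode transcription factors of limb and craniofacial mesenchyme. Twist1 had 2.56 and 2.93 CPM at 24 h, against 3.30 and 3.97 CPM at 0 h. Prrx1 had 1.77 and 1.80 CPM at 24 h, against 1.15 and 1.79 CPM at 0 h. Twist1 was lower in both 24 h libraries, with an edgeR adjusted p of 0.256, and Prrx1 overlapped.

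The gap between replicates of a group followed the GC content of these genes. At 0 h, replicate A lay above replicate B for 25 of the 30 genes, and at 24 h for 17. Over the 30 genes, the Pearson correlation of GC content with the log2 difference A minus B was 0.52 at 24 h and 0.64 at 0 h. Over 17927 genes tested with a GC value it was 0.07 at 24 h and 0.53 at 0 h. The points share the same pair of libraries and the GC-rich genes include some of the collagens, so these correlations are a description. Among the collagens, Col12a1 (48.3%) and Col5a2 (49.6%) lay below the median GC content of the 30 genes (52.5%). The largest gaps at 0 h were those of Col6a1 (0.96, GC content 56.7%), Col6a3 (0.81) and Col5a1 (0.66, GC content 58.0%). With each library's trend over GC content and transcript length removed, 24.3% of all genes tested were past the test and 8 of the 30 listed genes. These were Vim (1.03), Timp3 (0.58), Loxl1 (0.56), Acta2 (0.38), Thbs1 (0.33) and Timp1 (0.29), higher at 24 h on the log2 scale, and Pdgfrb (-0.90) and Sparc (-0.19), lower. In that fit 6 listed genes that were not past the main test became so, among them Timp3 and Acta2.

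**Figure D4:**
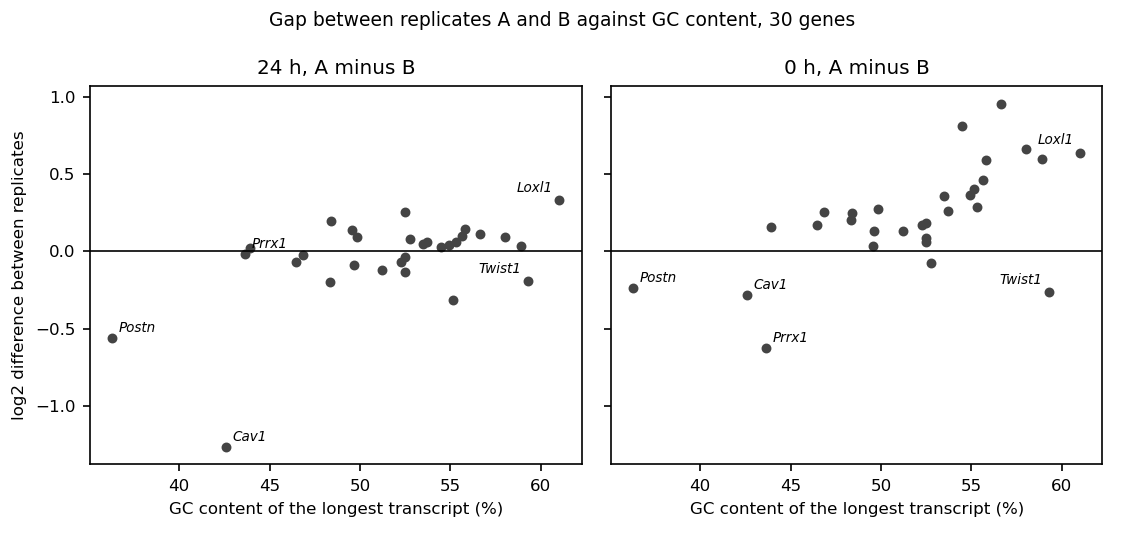
Log2 difference of replicate A minus replicate B (y axis) against the GC content of the longest transcript (x axis, %) for the 30 listed genes, at 24 h (left) and 0 h (right). At 0 h GC-rich genes such as Loxl1 lie above 0, with Twist1 as an exception, and Prrx1 and Postn below, and at 24 h Cav1, a gene of few counts, lies lowest.

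Other genes of the same pathways were read from 6 lists that hold none of the 33 genes. Together 20 of their genes were past the test. Over all genes tested 6.8% were past it, 4.15% higher and 2.65% lower, and the number tested is given with each list. The counts and that share both changed with the library left out. Collagen chains need hydroxylases, chaperones and processing proteases, and of 24 such genes 3 were higher and 3 lower at 24 h, with a median log2 fold change of -0.24. That median was -0.30 without replicate A of 24 h and -0.15 without replicate B of 24 h. It was -0.13 without replicate A of 0 h and -0.19 without replicate B of 0 h. Serpinh1, which encodes the collagen chaperone HSP47, had 125.1 and 123.7 CPM at 24 h, against 83.1 and 68.0 CPM at 0 h (log2 fold change 0.72; edgeR adjusted p 0.0224). Fkbp10, a prolyl isomerase of the endoplasmic reticulum, had 17.2 and 15.2 CPM at 24 h, against 8.93 and 6.71 CPM at 0 h. The prolyl hydroxylase subunits went different ways. P4ha3 had 1.21 and 1.62 CPM at 24 h, against 0.573 and 0.309 CPM at 0 h, and rose. P4ha2 had 12.2 and 12.1 CPM at 24 h, against 20.8 and 17.5 CPM at 0 h, and fell. Pcolce2, an enhancer of procollagen cleavage, also fell, with 5.05 and 5.71 CPM at 24 h, against 11.3 and 10.1 CPM at 0 h. Tmem38b, an ion channel of the endoplasmic reticulum, fell to 18.0 and 18.2 CPM at 24 h, against 26.1 and 27.1 CPM at 0 h.

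Of 30 other matrix genes tested, 2 were higher and 2 lower, with a median of 0.02. The sign of that median rested on single libraries, since it was 0.02 without replicate A of 24 h, -0.11 without replicate B of 24 h, 0.27 without replicate A of 0 h and -0.07 without replicate B of 0 h. The genes past the test changed with the library left out as well. Efemp1, a fibulin, had 9.56 and 8.33 CPM at 24 h, against 1.92 and 2.57 CPM at 0 h, a log2 fold change of 2.00 (SE 0.21; edgeR adjusted p 0.00617). Vcan, which encodes the proteoglycan versican, had 108.6 and 110.3 CPM at 24 h, against 52.2 and 59.3 CPM at 0 h. Nid1, a basement membrane linker, fell to 588.1 and 566.8 CPM at 24 h, against 882.2 and 870.4 CPM at 0 h. Ddr2, a receptor for fibrillar collagen, fell to 8.63 and 9.45 CPM at 24 h, against 14.3 and 14.9 CPM at 0 h.

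Of 23 other contractile genes tested, 2 rose and 0 fell, with a median of -0.18. Neither call held with either 24 h library left out. The median was -0.25 without replicate A and -0.13 without replicate B of 24 h. It was -0.02 without replicate A of 0 h and -0.19 without replicate B of 0 h. Cald1, which encodes caldesmon, a regulator of actomyosin, had 384.6 and 387.1 CPM at 24 h, against 232.1 and 261.3 CPM at 0 h. Tpm2, a tropomyosin, had 38.1 and 38.6 CPM at 24 h, against 26.3 and 26.2 CPM at 0 h. The log2 fold changes were 0.65 for Cald1 and 0.55 for Tpm2. DESeq2 called 3 of the contractile genes higher and 4 lower, and limma voom 2 higher and 0 lower.

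TGF-beta signalling is known to induce many of the listed genes in fibroblasts. Of 25 genes of that pathway, 2 were higher and 1 lower, with a median of -0.15. Without replicate A of 0 h the median turned to 0.04, and without replicate B of 0 h it was -0.14. It was -0.19 without replicate A of 24 h and -0.03 without replicate B of 24 h. The genes past the test changed with the library left out. Tgfb2, a ligand, had 6.94 and 6.05 CPM at 24 h, against 2.21 and 2.76 CPM at 0 h (log2 fold change 1.39; edgeR adjusted p 0.0130). Zeb2, a SMAD-interacting repressor, had 2.23 and 2.18 CPM at 24 h, against 0.791 and 1.13 CPM at 0 h. Ccn2, a matrix-associated target of TGF-beta and YAP, had 27.6 and 31.5 CPM at 24 h, against 42.8 and 42.3 CPM at 0 h, and fell. Tgfb2, Zeb2, Ccn2, Fkbp10, Nid1, Ddr2, Tbx18, Pitx1 and Tmem38b share exon bases with another gene, so their counts are less certain.

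Hox genes mark the body position of fibroblasts, and 28 of 39 could be tested. None was past edgeR's test, 3 had an unadjusted p under 0.05, and DESeq2 and limma voom called 0 each. The median of the Hox genes was -0.17, but -0.01 without replicate A of 0 h and -0.08 without replicate B of 0 h. It was -0.28 without replicate A of 24 h and -0.26 without replicate B of 24 h. The lowest p-values belonged to Hoxd8, with 1.85 and 1.84 CPM at 24 h, against 1.21 and 1.03 CPM at 0 h, and Hoxc11, with 0.845 and 0.812 CPM at 24 h, against 1.28 and 1.34 CPM at 0 h. Of 18 other mesenchymal transcription factors tested, 0 rose and 5 fell, with a median of -0.65, and 11 had an unadjusted p under 0.05. With each library left out in turn, the median lay between -0.88 and -0.65, and the genes past the test changed. The median also changed with the filter on low counts. It was -0.39 over 28 genes with no filter, and -0.65 over 10 genes with a stricter filter. Msx1, of limb and craniofacial buds, had 0.805 and 0.748 CPM at 24 h, against 2.23 and 2.22 CPM at 0 h. Tbx15, of limb and skin mesenchyme, had 6.62 and 6.82 CPM at 24 h, against 12.6 and 12.1 CPM at 0 h. Pitx1, of the hindlimb, had 2.42 and 2.14 CPM at 24 h, against 10.1 and 5.06 CPM at 0 h. Tbx5, of the forelimb and heart, had 0.0805 and 0.107 CPM at 24 h, against 0.534 and 0.638 CPM at 0 h. At 24 h Tbx5 lay under the filter's 10 counts, so it was tested only because of its level at 0 h. Its place among the 5 that fell rests on that filter. Tbx18 was the other gene that fell (log2 fold change -1.30). These genes lay low, and 14 of the 18 reached 0.5 in size of log2 fold change, beside 24.9% of all genes tested.

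**Figure D5:**
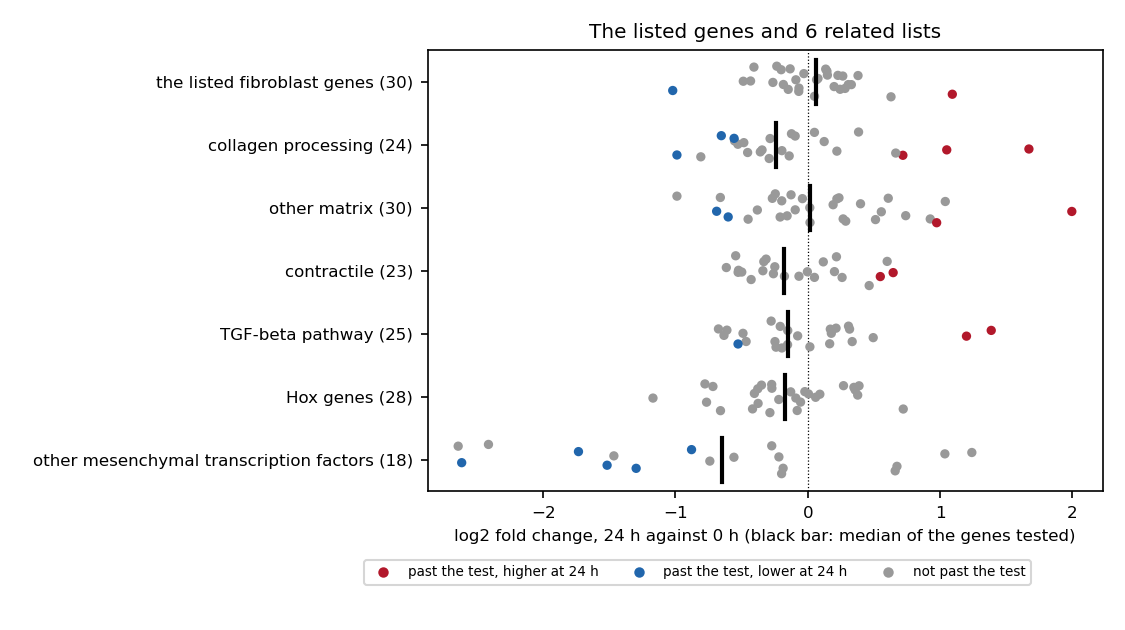
Log2 fold change of 24 h against 0 h (x axis) for the tested genes of the listed fibroblast genes and of 6 related lists, 1 point per gene, with the number tested in brackets and a black bar at the median. Red and blue points are past edgeR's test, and the median of the other mesenchymal transcription factors (-0.65) lies lowest.

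Markers of other cell types were read beside these results. Endothelial markers (8 genes, highest Vwf, Tek and Cldn5) summed to 111.4 and 108.0 CPM at 24 h, against 83.2 and 70.4 CPM at 0 h, with Cdh5 and Emcn at 0 counts in every library. Macrophage markers (8 genes, highest Cd68, Itgam and Fcgr3) summed to 53.0 and 51.0 CPM at 24 h, against 44.4 and 39.4 CPM at 0 h, with Ptprc, Adgre1 and Tyrobp at 0. Muscle markers (8 genes, highest Ttn, Myh3 and Myog) summed to 32.5 and 31.5 CPM at 24 h, against 19.8 and 24.9 CPM at 0 h, with Myod1 at 0. These 3 sums were higher in both 24 h libraries. Of single genes tested, 29.3% were so, a share that is no baseline for sums over several genes. Of the 8 genes in each list, 4 endothelial, 3 macrophage and 4 muscle markers had enough counts to be tested. The sums do not show that these cell types were present. Markers of primitive and parietal endoderm (14 genes, highest Lamc1, Lamb1 and Lama1) summed to 1496 and 1451 CPM at 24 h, against 1729 and 1483 CPM at 0 h, with Afp at no more than 1 count. Of the endoderm markers Lamb1 and Srgn rose, of the endothelial markers Tek rose and Kdr fell, and of the macrophage markers Itgam rose. Over all genes tested, 4.15% rose and 2.65% fell by the same test. The part of these cell types in the changes of Vim and Pdgfrb was not tested.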

How the data were processed

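The authors deposited raw read counts per Ensembl gene for 4 libraries, made with a stranded mRNA kit and single-end reads of 50 nt, per the labels' protocols. TopHat2, HTSeq, DESeq and the build mm10 are named, with no versions, per the submitters' processing notes. The counting's strand setting and its annotation release were not given in the sources used here.

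GENCODE M21 (GRCm38) gave symbols, coordinates, GC content and lengths of transcripts, with no match for 563 gene identifiers. After filterByExpr (at least 10 counts, total of at least 15) and TMM scaling, 24 h was set against 0 h with the quasi-likelihood test of edgeR 4.0.16 in R 4.3.3, with 2-sided p-values adjusted by Benjamini-Hochberg over 18005 genes and called under 0.05. The filter could be met by the libraries of a single group. CPM and RPKM were computed here from the deposited counts. Alternatives used DESeq2 1.42.0, limma 3.58.1, other scalings and filters, a block, a GC and length correction, and each library left out. The listed genes and the related lists were chosen with earlier results of these data known. Named were all 33 listed genes, up to 4 higher and 4 lower genes of each related list in order of p (with none past the test, the 2 with the lowest p), and of each marker list those at 0 and the highest 3. The guide target genes, Fap, and the stem cell, endoderm, endothelial and macrophage markers past the test were added to these. P-values set the difference between the groups against the spread between replicates of a group, which is estimated with help from the other genes. Whether that spread includes differences between clones is not known.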

Additional observations from a re-analysis of the deposited data

How the results depend on the processing

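As reported, edgeR called 1225 of all genes, 2 of the listed fibroblast genes and 20 genes of the related lists. With no filter on low counts these became 2589 genes and 35 of the related lists, and with DESeq2's Wald test 1872 genes. With the replicate letter as a block they became 3253 genes and 41 of the related lists. With the GC and length trend removed they became 4380 genes, 8 listed genes and 54 of the related lists, and with the block added 5539, 8 and 61. Leaving out each library in turn gave 506 to 9416 genes, 1 to 14 listed genes and 7 to 77 of the related lists, with the most calls without a 0 h library. Without replicate A of 0 h, Col1a1 (0.19) and Col5a1 (0.19) reversed to a positive log2 fold change, against -0.40 for Col1a1 and -0.48 for Col5a1 without replicate B of 0 h. The cause was not tested. The summed level of all listed genes at 24 h became 3382 CPM (A) and 3312 CPM (B) with library size alone and 3355 and 3310 CPM with upper-quartile scaling. At 0 h it became 3819 CPM (A) and 3212 CPM (B) with library size alone and 3827 and 3237 CPM with upper-quartile scaling. For the 14 narrower genes the sum at 24 h became 170.7 and 168.0 CPM with library size alone and 169.4 and 167.9 CPM with upper-quartile scaling. At 0 h it became 195.8 and 154.0 CPM with library size alone and 196.2 and 155.2 CPM with upper-quartile scaling. The 24 h sums lay between those of 0 h throughout. Counts of all genes called under the other settings were 1085 to 1391. No label says whether the letters pair the libraries. The deviations A minus B of 24 h and 0 h correlated at 0.06, which cannot decide it, because the 0 h gap went with GC content. The block added Timp3 to the listed genes called. With 2 libraries per group, Dcn, Lum, S100a4 and Cav1 are limited by their counts.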
